A study of Mus musculus with 78 samples.

Results

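The alpha-ketoglutarate-dependent dioxygenases are iron enzymes that use alpha-ketoglutarate and oxygen as co-substrates to hydroxylate or demethylate proteins, nucleic acids and small molecules. The 44 member genes described here were chosen by mouse symbol, of 36904 gene IDs in the expression table, and all 44 were found and passed the filter on low counts. By role they comprised 3 TET DNA demethylases, 13 JmjC histone demethylases, 7 JmjC and related protein hydroxylases, 3 prolyl hydroxylases of hypoxia-inducible factor (HIF), 9 collagen prolyl and lysyl hydroxylases, the membrane-bound prolyl hydroxylase P4htm, 6 AlkB-family and Fto demethylases, and 2 enzymes of small molecules, Phyh and Bbox1.

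These enzymes couple the tricarboxylic acid cycle to other processes, since the cycle makes alpha-ketoglutarate and also makes succinate and fumarate, which compete with it at the active site. The HIF prolyl hydroxylases mark HIF alpha subunits for degradation when oxygen is present, the TET and JmjC enzymes remove methyl groups from DNA and histones, and the collagen hydroxylases act in the endoplasmic reticulum before the triple helix folds and is cross-linked. Muscle fibres, vessel cells and fibroblasts of one muscle can each contribute transcripts of a given member, so in bulk tissue fewer cells of a type and less RNA per cell cannot be told apart.

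Total RNA of soleus, a postural hindlimb muscle, came from C57Bl/6 mice in 2 labelled batches. Batch 2 held 12 males of 28 months on 2% calcium alpha-ketoglutarate (CaAKG) in the feed, and 10 males and 7 females of 28 months on control feed. Batch 1 held controls only: 6 males and 4 females at 6 months, 6 males and 6 females at 12 months, 9 males and 6 females at 20 months, and 5 males and 6 females at 28 months. The label M28 was read as 28 months. All mice are labelled as one strain and carry no engineered allele in the labels. The mice of 6 and 12 months came from Invivos in Singapore and those of 20 months from the Jackson Laboratory in the USA, so that age and supplier cannot be told apart in the comparison of 20 with 6 months. A separate cohort was brought in at 17 months and randomised to diets after acclimatisation; the supplier of the 28-month mice is not stated. Replicates are taken as separate mice from the labels, apart from 2 libraries of 12-month females that share an animal tag and were summed.

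Depth was 19.5 to 81.6 x 1e6 counts per library (median 35.2 x 1e6), and the mitochondrial genome took 10.1% to 46.5% of them. The 8 muscle markers were present in every group, at 33962 to 100349 counts per 1e6 (CPM) in sum. Both the 46.5% and the 33962 CPM came from 12-month female 4. All other replicates had at most 27.1% and at least 52949 CPM. In 5 libraries (12-month females 1 and 4, 12-month male 3, 6-month female 3 and 6-month male 3) the sex-linked transcripts went against the label. In 9 others (28-month batch 1 females 8, 10 and 12, batch 2 control male 4, 12-month female 5, and CaAKG males 6, 7, 8 and 10) keratinocyte or neutrophil markers summed to over 100 CPM. Counts of members called with age or with CaAKG are given with and without both sets, the doubted libraries, below.

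Per kilobase of transcript, the most abundant members were Phyh, which starts the alpha-oxidation of phytanic acid in peroxisomes, at a median of 145 CPM per kb over all replicates, and Egln1 (PHD2), the main HIF prolyl hydroxylase, at 128 CPM per kb. Their order varied: the group median of Phyh was the higher in 7 of 11 groups and that of Egln1 in 4, all female. Egln3 followed at 54.8, Egln2 at 40.2, the HIF asparaginyl hydroxylase Hif1an (FIH) at 29.9 and the RNA m6A demethylase Alkbh5 at 23.3 CPM per kb. At the other end stood P4ha3 at 0.108, Tet1 at 0.0762 and Bbox1, the last enzyme of carnitine synthesis, at 0.0118 CPM per kb. Bbox1 was at 0 counts in 26 of 77 replicates and P4ha3 in 7.

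Promoter windows are printed for 4 members named in the results below. Kdm7a and Plod1 were higher at 20 months in both sexes with and without a correction for transcript length. Alkbh7 was lower in the same way. P4ha1 had the lowest p for a difference between the sexes at 20 months, though it did not pass. Each window holds 250 bases before and 50 after the RefSeq transcription start (build GRCm38.p6), and capitals mark the core of a hypoxia response element, ACGTG or GCGTG, on either strand; in Alkbh7 one stretch is the palindrome CACGTG, where matches on both strands overlap. Kdm7a lies at chr6:39206724-39207023 on the minus strand, Plod1 at chr4:147936727-147937026 on the minus strand, P4ha1 at chr10:59323046-59323345 on the plus strand and Alkbh7 at chr17:56997089-56997388 on the plus strand.
Kdm7a: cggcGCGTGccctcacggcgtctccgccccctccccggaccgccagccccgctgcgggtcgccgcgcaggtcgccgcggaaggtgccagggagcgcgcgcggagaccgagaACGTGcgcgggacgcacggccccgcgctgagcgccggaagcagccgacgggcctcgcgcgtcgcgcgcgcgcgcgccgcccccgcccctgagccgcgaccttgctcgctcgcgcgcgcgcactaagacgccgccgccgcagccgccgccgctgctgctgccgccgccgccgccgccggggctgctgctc
Plod1: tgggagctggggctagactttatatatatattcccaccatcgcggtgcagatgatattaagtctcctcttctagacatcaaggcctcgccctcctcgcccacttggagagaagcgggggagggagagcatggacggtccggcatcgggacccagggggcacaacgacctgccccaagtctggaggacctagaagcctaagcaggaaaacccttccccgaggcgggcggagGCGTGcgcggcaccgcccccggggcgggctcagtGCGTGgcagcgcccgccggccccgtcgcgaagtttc
P4ha1: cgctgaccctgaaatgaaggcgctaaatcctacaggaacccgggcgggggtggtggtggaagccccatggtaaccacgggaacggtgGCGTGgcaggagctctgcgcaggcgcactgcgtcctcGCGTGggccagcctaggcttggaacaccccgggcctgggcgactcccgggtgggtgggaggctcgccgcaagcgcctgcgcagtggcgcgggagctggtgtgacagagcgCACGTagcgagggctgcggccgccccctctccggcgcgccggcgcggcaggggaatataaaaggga
Alkbh7: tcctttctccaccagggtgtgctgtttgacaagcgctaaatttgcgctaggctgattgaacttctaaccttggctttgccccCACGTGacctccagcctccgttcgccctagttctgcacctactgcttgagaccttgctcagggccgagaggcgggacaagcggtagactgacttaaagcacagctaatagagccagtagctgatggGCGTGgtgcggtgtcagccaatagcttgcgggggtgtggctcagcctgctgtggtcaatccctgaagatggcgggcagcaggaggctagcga
The core occurred 2 times in Kdm7a and Plod1 and 3 times in P4ha1 and Alkbh7. Ogfod2 and Egln2, not printed, were lower in the same way as Alkbh7. The window of Ogfod2 held the core 0 times, and those of Egln2 held it 1 and 6 times. Windows were at hand for 36 members, some with several, and 26 of their 45 windows (57.8%) held the core, beside 43.8% of all 32851 promoter windows. Counted by gene, 21 of the 36 members (58.3%) had the core in any window, beside 46.7% of all 27025 genes. The palindrome CACGTG stood in 7.15% of all windows. A match describes letters and does not show binding.

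At 20 against 6 months most members differed in the fit without a correction for transcript length. There the demethylases of DNA and histones mainly rose, and the HIF prolyl hydroxylases mainly fell. With a correction for length and GC content, described below, only Kdm6b and Kdm7a among these demethylases rose in both sexes. Of the HIF prolyl hydroxylases only Egln2 then fell in both. The counts that follow are without that correction. Of 44 members 23 rose and 7 fell in females, and 22 rose and 9 fell in males (edgeR quasi-likelihood test, adjusted p under 0.05 over 18218 genes). Of all genes tested, 18.2% rose and 17.8% fell in females, and 22.6% rose and 22% fell in males. The median log2 fold change of the members was 0.49 in females and 0.41 in males, beside 0.0017 and 0.024 over all genes. The same 19 members rose in both sexes and the same 7 fell in both, and none passed in opposite directions in the fit of all libraries. In females 19 of the 23 that rose and 7 of the 7 that fell had groups without overlap. In males these were 19 of 22 and 5 of 9. The share of all genes without overlap was not counted, here or at other ages, so these counts describe the members alone. Without the doubted libraries 19 members rose and 7 fell in females, and 24 rose and 12 fell in males. Of 17826 genes 6336 passed in females and 8958 in males in that fit. There 16 members rose and 7 fell in both sexes, and 1 passed in opposite directions.

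**Figure D1:**
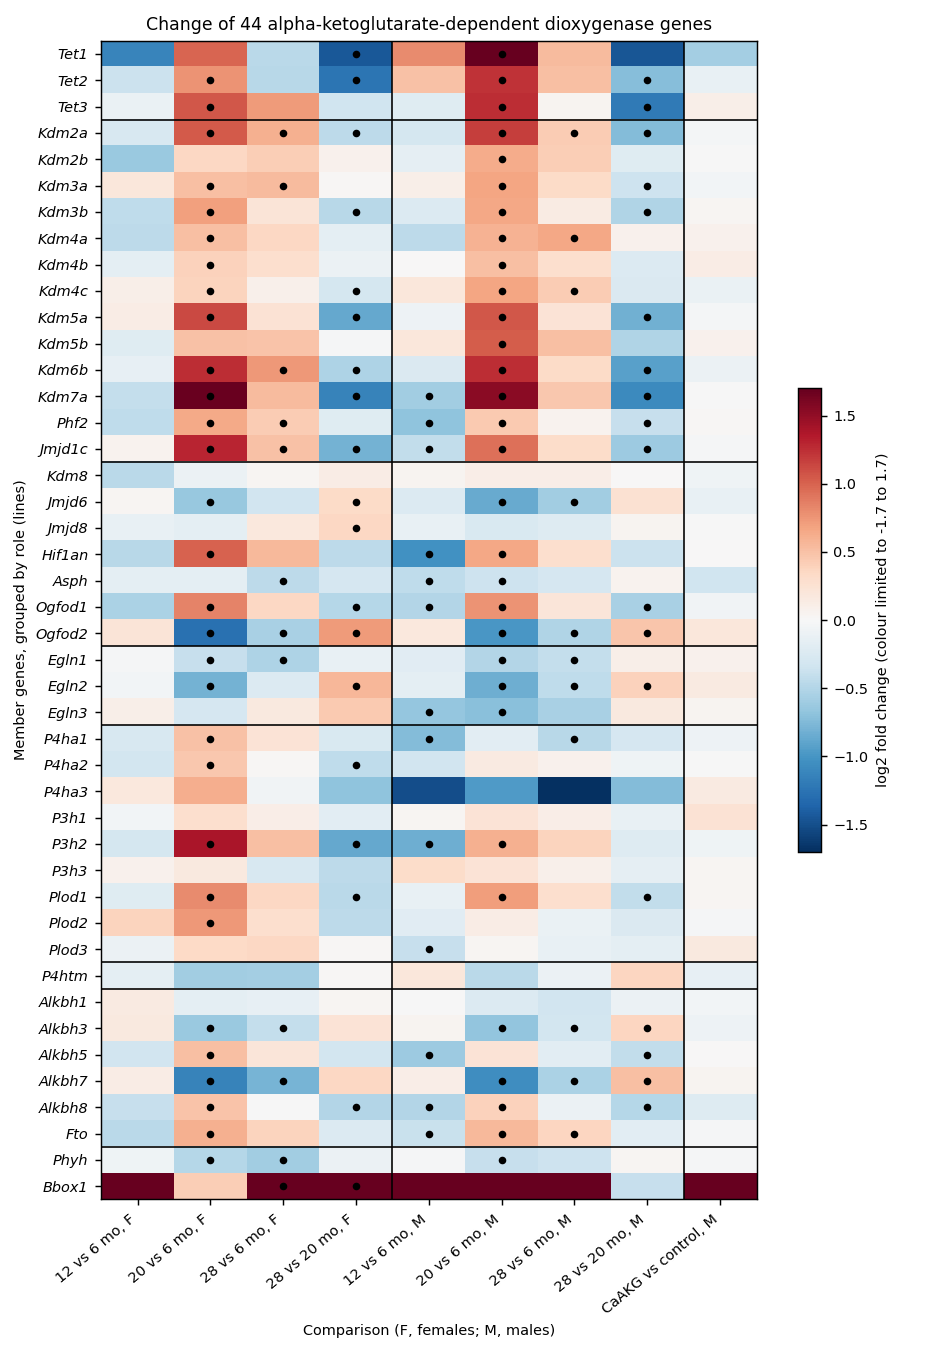
Colour gives the log2 fold change (later over earlier age, or CaAKG over control) of each of the 44 members in each comparison, in rows grouped by role, with black points where the adjusted p was under 0.05. Most TET and histone demethylase rows are red at 20 against 6 months and blue at 28 against 20 months in both sexes, the HIF prolyl hydroxylase rows are blue at 20 against 6 months, and the CaAKG column holds no point.

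All 13 JmjC histone demethylases rose in males at 20 months and 11 of them in females; Kdm2b and Kdm5b did not pass there. Kdm7a, which removes methyl groups from histone H3 and lies at chr6:39136623-39206789 (mm10), had 45.6, 57.6 and 66.2 CPM (lowest, median, highest) in 20-month females, against 22.8, 16.9, 9.62 and 22.8 CPM in the 6-month females. In males it had 57.4, 65.5 and 78.5 CPM at 20 months, against 19.4, 23.3 and 25.1 CPM at 6 months. The ages did not overlap in either sex, and Kdm7a had the largest rise of the 13 histone demethylases in each sex, with a log2 fold change of 1.68 ± 0.22 (SE, edgeR adjusted p = 5.67e-09) in females and 1.54 ± 0.18 (adjusted p = 3.06e-11) in males.

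Kdm6b, a demethylase of the Polycomb mark on histone H3, had 24.3, 29.5 and 43.2 CPM in 20-month females, against 14.8, 13.0, 9.41 and 15.4 CPM at 6 months, a log2 fold change of 1.25 ± 0.21 (edgeR adjusted p = 2.13e-06). The male values of Kdm6b were 25.6, 36.3 and 44.2 CPM at 20 months, against 13.4, 15.9 and 17.5 CPM at 6 months, a rise of 1.26 ± 0.18 (adjusted p = 8.17e-09). Kdm2a, which acts on histone H3 at CpG islands, rose by 1.04 ± 0.14 in females and 1.17 ± 0.11 in males, and Jmjd1c, a member of the Kdm3 family, by 1.3 ± 0.16 and 0.93 ± 0.13. Kdm5a, Kdm3a, Kdm3b, Kdm4a, Kdm4b, Kdm4c and Phf2 rose in both sexes too, by 0.39 to 1.12 in females and 0.44 to 1.06 in males. Leaving out a single library ended the female call of Kdm4a (20-month females 1, 3 or 4 or 6-month females 2, 3 or 4, at 0.39 to 0.51), of Kdm4b (20-month females 1, 3 or 4 or any 6-month female, at 0.36 to 0.41) and of Kdm4c (6-month females 2, 3 or 4, at 0.30 to 0.37). The other calls of histone demethylases at 20 months held in every such fit.

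Among the TET enzymes, which oxidise methylcytosine, Tet2 had 35.4, 40.7 and 53.0 CPM in 20-month females, against 20.6, 29.2, 18.9 and 30.8 CPM at 6 months, a log2 fold change of 0.76 ± 0.21 (edgeR adjusted p = 0.00194). In males Tet2 had 30.8, 38.7 and 45.6 CPM at 20 months, against 10.8, 15.2 and 23.4 CPM at 6 months, a change of 1.24 ± 0.17 (adjusted p = 7.41e-09). Neither sex showed overlap of the ages. Tet3 rose by 1.05 ± 0.32 in females and 1.25 ± 0.26 in males. Tet1, at 1.14, 1.61 and 4.22 CPM in 20-month males against 0.312, 0.527 and 0.835 CPM at 6 months, rose by 1.98 ± 0.56 in males, while its change of 0.99 ± 0.65 in females did not pass.

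**Figure D2:**
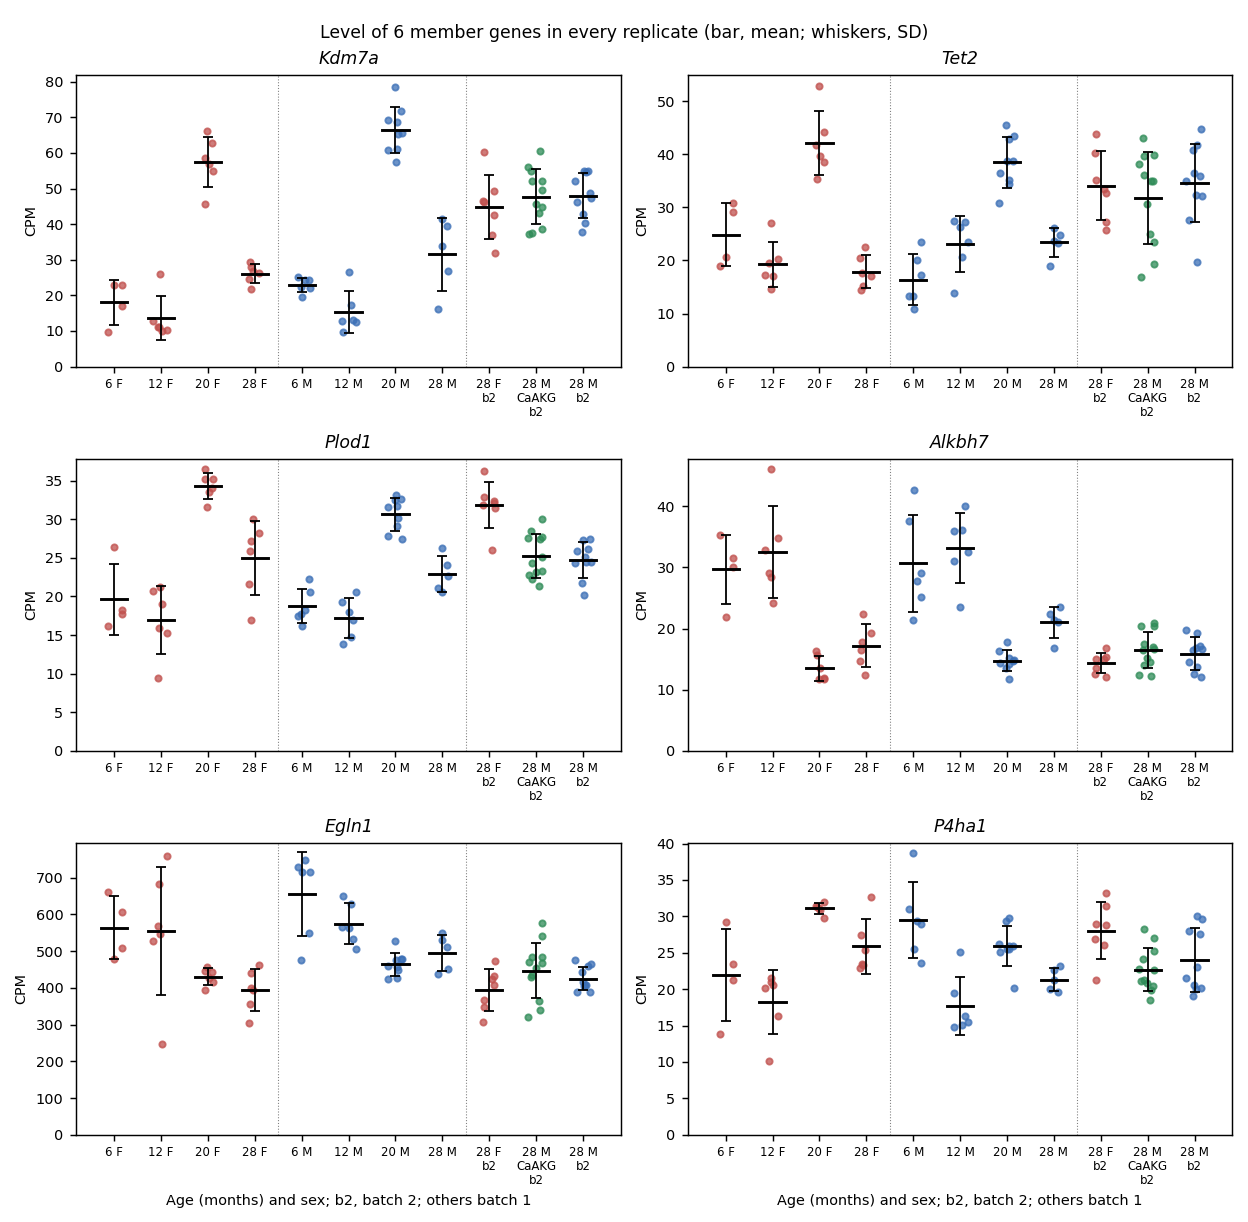
CPM of Kdm7a, Tet2, Plod1, Alkbh7, Egln1 and P4ha1 in every replicate of the 11 groups, with the mean (bar) and SD (whiskers); the vertical axis starts at 0. The 20-month replicates of Kdm7a lie between 45.6 and 78.5 CPM, above every 6-month replicate, whereas those of Alkbh7 lie between 11.7 and 17.7 CPM, below every 6-month replicate.

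The HIF prolyl hydroxylases fell at 20 months, apart from Egln3 in females, which did not pass. Egln2 (PHD1) had 62.6, 68.5 and 70.9 CPM in 20-month females, against 92.4, 120, 148 and 114 CPM at 6 months, a log2 fold change of -0.81 ± 0.14 (edgeR adjusted p = 4.22e-06). Male Egln2 was 57.1, 70.3 and 86.4 CPM at 20 months, against 116, 127 and 135 CPM at 6 months, a change of -0.83 ± 0.12 (adjusted p = 1.14e-08). The ages did not overlap in either sex.

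Egln1, at chr8:124908587-124949324, had 395, 435 and 456 CPM in 20-month females, against 479, 606, 662 and 509 CPM at 6 months, without overlap. Its female change of -0.39 ± 0.15 (edgeR adjusted p = 0.0301) was lost without 20-month female 3 (adjusted p = 0.057), 6-month female 2 (adjusted p = 0.074) or 6-month female 3 (-0.30, adjusted p = 0.16). In males Egln1 had 425, 458 and 528 CPM at 20 months, against 476, 715 and 748 CPM at 6 months, with overlap, and fell by 0.50 ± 0.12 (adjusted p = 0.000383). Egln3 (PHD3), itself a HIF target, had 75.5, 120 and 182 CPM in 20-month males, against 162, 203 and 231 CPM at 6 months; it fell by 0.71 ± 0.18 (adjusted p = 0.000774). In females the Egln3 change was -0.29 ± 0.22 and did not pass. P4htm, a prolyl hydroxylase of the endoplasmic reticulum membrane, changed by -0.60 ± 0.35 in females and -0.46 ± 0.29 in males, without passing.

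The other protein hydroxylases moved in both directions. Hif1an had 195, 217 and 230 CPM in 20-month females, against 136, 103, 60.3 and 128 CPM at 6 months, and rose by 1.00 ± 0.26 in females and by 0.66 ± 0.21 in males (edgeR adjusted p = 0.00133 and 0.00692). Ogfod1, which hydroxylates a ribosomal protein, rose by 0.84 ± 0.19 in females and 0.76 ± 0.15 in males. Ogfod2 had 6.05, 6.99 and 8.76 CPM in 20-month females, against 12.5, 16.5, 24.4 and 16.2 CPM at 6 months, and fell by 1.27 ± 0.17 in females and 0.99 ± 0.14 in males. Jmjd6, a lysyl hydroxylase of splicing factors, had 16.7, 21.1 and 23.8 CPM in 20-month males, against 31.1, 39.5 and 43.5 CPM at 6 months; it fell by 0.65 ± 0.13 in females and 0.85 ± 0.10 in males. The ages of Ogfod2 and Jmjd6 did not overlap in either sex.

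Asph, an aspartyl and asparaginyl hydroxylase whose gene also encodes the calcium store protein junctin, fell by 0.35 ± 0.13 in males (edgeR adjusted p = 0.019; -0.31 and adjusted p = 0.052 without 6-month male 6) and changed by -0.16 ± 0.15 in females. Counts per gene do not separate its isoforms. Kdm8, an arginyl hydroxylase, and Jmjd8 passed in neither sex. Jmjd8 shares 39.3% of its exon bases with Stub1 on the opposite strand, so its counts are uncertain where strand was not used.

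Of the 9 collagen hydroxylases 5 rose in females and 2 in males, and none fell. Plod1, a lysyl hydroxylase of the collagen helix at chr4:147909753-147936767, had 31.6, 34.6 and 36.5 CPM in 20-month females, against 26.4, 17.8, 16.1 and 18.2 CPM at 6 months. In males it had 27.4, 31.6 and 33.1 CPM at 20 months, against 16.2, 17.98 and 22.3 CPM at 6 months. No replicate overlapped between the ages, and the rise was 0.81 ± 0.14 in females and 0.71 ± 0.11 in males (edgeR adjusted p = 1.43e-06 and 1.3e-07).

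P3h2, a prolyl 3-hydroxylase known for acting on basement membrane collagen, had 56.3, 62.5 and 91.2 CPM in 20-month females, against 35.4, 32.3, 13.7 and 23.3 CPM at 6 months, and rose by 1.38 ± 0.29 (edgeR adjusted p = 7.18e-05). Male P3h2 was 26.1, 41.7 and 65.0 CPM at 20 months, against 18.5, 28.4 and 35.9 CPM at 6 months; the rise of 0.60 ± 0.23 (adjusted p = 0.0275) was lost without 20-month males 2, 4 or 5 or 6-month males 4 or 5, at 0.46 to 0.53. P3h2 shares 28.4% of its exon bases with Gm4524 on the opposite strand. P4ha1 and P4ha2, catalytic subunits of the collagen prolyl 4-hydroxylase, rose in females by 0.50 ± 0.16 and 0.46 ± 0.14, and Plod2, the lysyl hydroxylase of collagen telopeptides, by 0.73 ± 0.25. The P4ha1 call was lost without 6-month female 3 (0.34, adjusted p = 0.12) and that of Plod2 without 6-month female 2 (0.60, adjusted p = 0.09). In males these 3 genes changed by -0.18 ± 0.13, 0.15 ± 0.11 and 0.13 ± 0.20 and did not pass. P3h1, P3h3, P4ha3 and Plod3 passed in neither sex.

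Markers of vessel cells mostly rose at the same age, and those of collagen-making cells moved in both directions. Among 10 endothelial markers there were 8 rises and 1 fall in females and 8 rises in males; of 8 smooth muscle and pericyte markers 6 and 8 rose. Of 8 fibroblast markers 2 rose in females, and 4 rose and 1 fell in males; tendon markers, 6 in all, had 2 rises and 1 fall in females and 5 rises and 1 fall in males. The summed level of the endothelial markers was 466 to 652 CPM in 20-month females, against 150 to 367 CPM at 6 months, and 490 to 716 CPM in 20-month males, against 108 to 225 CPM at 6 months. Smooth muscle and pericyte markers summed to 683 to 775 CPM in 20-month females, against 172 to 399 CPM at 6 months, fibroblast markers to 1229 to 1728 CPM, against 563 to 1449 CPM, and tendon markers to 578 to 805 CPM, against 187 to 546 CPM. None of these markers was at 0 in all replicates of a group. In males smooth muscle markers summed to 667 to 907 CPM at 20 months, against 184 to 257 CPM at 6 months, fibroblast markers to 1199 to 2162 CPM, against 385 to 848 CPM, and tendon markers to 294 to 627 CPM, against 99.2 to 240 CPM. The 8 muscle markers had 2 rises and 5 falls in females (median log2 fold change -0.51) and 2 rises and 6 falls in males (-0.72), and summed to 68832 to 76790 CPM in 20-month females, against 72374 to 84039 CPM at 6 months, and to 52949 to 67962 CPM in 20-month males, against 63184 to 76831 CPM at 6 months. With the length and GC offsets described below, the muscle markers had 0 rises and 1 fall in females (median -0.048) and 0 rises and 4 falls in males (-0.28). In that fit 7 endothelial and 5 smooth muscle markers rose in females, and 9 and 7 in males. Fibroblast markers then had 1 rise in females and 3 in males, and tendon markers 2 rises in females and 4 rises and 1 fall in males. The part of any of these markers in the members' results was not tested. Of 21 collagen chain and folding genes listed as partners, 7 rose and 1 fell in females and 7 rose and 2 fell in males at 20 months, close to the 36.0% and 44.6% of all genes that passed in females and males. With the offsets these partners had 3 rises in females, and 5 rises and 1 fall in males. The basement membrane chain Col4a1 rose by 1.24 in females and 1.36 in males and Col4a2 by 1.36 and 1.62, while Ppib, a cyclophilin that works with P3h1, fell by 0.52 and 0.57.

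Among nucleic acid demethylases and oxidases, Alkbh7 showed the largest fall. This mitochondrial AlkB protein, at chr17:56997339-56999322, had 11.7, 12.7 and 16.3 CPM in 20-month females, against 21.9, 31.5, 35.3 and 30.1 CPM at 6 months, and 11.8, 14.6 and 17.7 CPM in 20-month males, against 21.5, 28.4 and 42.7 CPM at 6 months. No replicate overlapped between the ages in either sex, and the log2 fold change was -1.14 ± 0.16 in females and -1.06 ± 0.13 in males (edgeR adjusted p = 3.8e-08 and 3.78e-10). Alkbh3, which repairs alkylated DNA and RNA, fell by 0.63 ± 0.11 in females and 0.67 ± 0.09 in males. Fto, an RNA demethylase, had 88.5, 95.1 and 107 CPM in 20-month females, against 81.9, 59.7, 49.4 and 63.7 CPM at 6 months, and rose by 0.60 ± 0.14 in females and 0.55 ± 0.12 in males, again without overlap. Alkbh8, a tRNA-modifying enzyme, rose by 0.49 ± 0.17 in females and 0.39 ± 0.14 in males; without single libraries the call was lost in 2 of 10 female fits (6-month females 2 and 3, 0.41 and 0.36) and in 2 of 15 male fits (6-month males 4 and 5, 0.28 and 0.32).

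Alkbh5 rose by 0.51 ± 0.16 in females (edgeR adjusted p = 0.00772; 0.38 and adjusted p = 0.1 without 6-month female 3), with 137, 151 and 163 CPM at 20 months, against 121, 107, 75.4 and 119 CPM at 6 months. Its male change of 0.23 ± 0.13 did not pass, nor did Alkbh1 in either sex. Phyh had 158, 165 and 181 CPM in 20-month females, against 211, 224, 283 and 215 CPM at 6 months, and fell by 0.49 ± 0.15 in females and 0.39 ± 0.12 in males; without 6-month female 3 the female value was -0.38 (adjusted p = 0.067). Bbox1 exceeded 0.5 CPM in 5 of 77 replicates, at 3.03 to 17.7 CPM, and in these 5 the 10 keratinocyte markers summed to 614 to 10487 CPM.

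Long transcripts were higher and short ones lower at 20 months across the whole transcriptome, and the members differ in length by role. Spearman's correlation of the log2 fold change with transcript length was 0.75 over the 44 members and 0.58 over 17766 genes in females, and 0.81 and 0.53 in males, given as a description across genes of the same libraries. Of all genes of 6 kb and over, 64.1% rose in females and 69.8% in males; of the 13 members of that length, 10 and 12 rose. Of all genes under 2 kb, 37.2% fell in females and 41.7% in males; of the 6 members of that length, 5 fell in each sex. The median length of a member was 4119.5 bases, against 2868.5 bases over all genes.

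**Figure D3:**
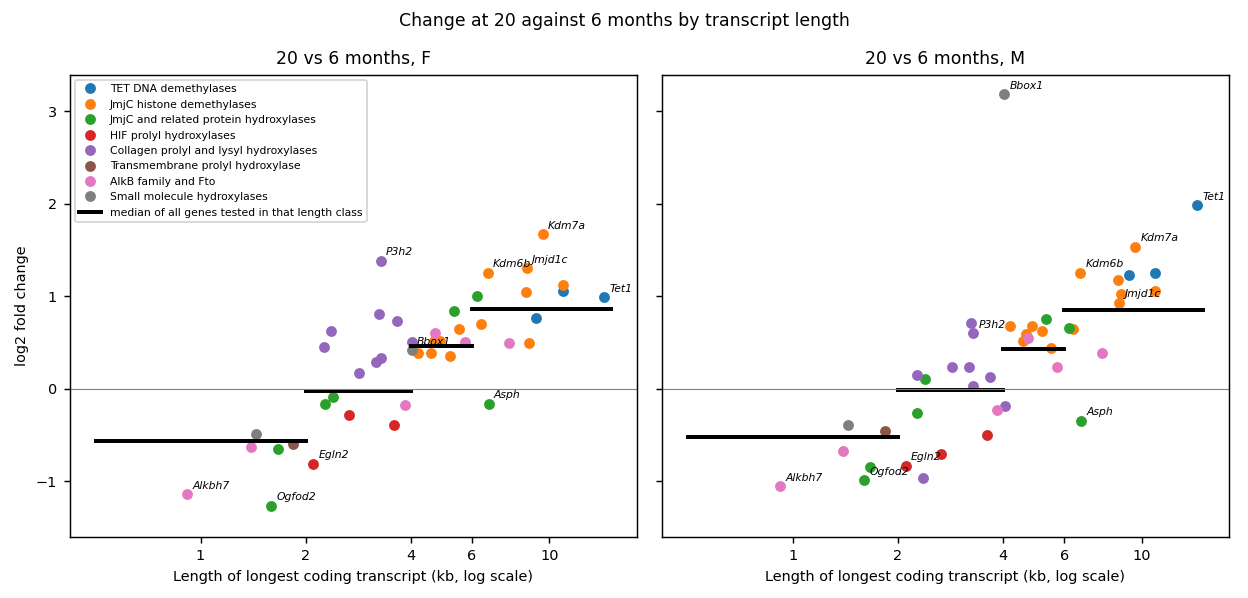
Log2 fold change at 20 against 6 months of each member (points, coloured by role) against the length of its longest coding transcript in kb on a log axis, females left and males right; black lines give the median of all genes in 4 length classes. The lines climb from -0.56 under 2 kb to 0.86 at 6 kb and over in females and from -0.52 to 0.85 in males, and Kdm7a and P3h2 lie above them while Asph lies below.

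A second fit gave each library an offset from a smooth trend of its counts on transcript length and GC content. With these offsets 11 members passed at 20 against 6 months in females and 20 in males, where 18.9% and 31% of all genes did. The members that rose in both sexes were then Kdm6b, Kdm7a, P3h2, P4ha2 and Plod1, and those that fell in both were Alkbh7, Asph, Egln2 and Ogfod2; the same members passed when the 14 doubted libraries were left out as well, where 18.6% of all genes passed in females and 37.4% in males. Kdm7a was at 0.82 in females and 0.65 in males with the offsets, Kdm6b at 0.72 and 0.73, Plod1 at 0.88 and 0.77, Alkbh7 at -0.46 and -0.40, and Egln2 at -0.48 and -0.54. Asph, whose longest coding transcript has 6694 bases, was at -0.86 in females and -1.02 in males (edgeR adjusted p = 6.2e-06 and 1.6e-10). Its female change had not passed without the offsets. The offset rests on that longest transcript, and counts per gene do not show which isoform was present. The size of this fall therefore depends on the length assigned.

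Other calls were lost under the offsets in 1 sex or both. Tet2 was at -0.13 in females and no longer passed (edgeR adjusted p = 0.69), while in males it still passed at 0.41 (adjusted p = 0.023). Kdm2a likewise did not pass in females, at 0.21, and passed in males, at 0.36. Kdm5a at 0.19 and 0.15, Fto at 0.19 and 0.16, Hif1an at 0.41 and 0.08 and Phyh at -0.10 and -0.01 passed in neither females nor males. Alkbh5 was at -0.06 and Alkbh8 at -0.27 in females, without passing, and Alkbh8 fell by 0.38 in males, all opposite in sign to the fit without offsets. Called in the fit without offsets, with them, without the doubted libraries and in every fit that left out a single library were 9 members in females (Kdm6b, Kdm7a, Jmjd1c, Ogfod2, Egln2, P4ha2, P3h2, Plod1 and Alkbh7) and 14 in males (Tet2, Kdm2a, Kdm4b, Kdm4c, Kdm6b, Kdm7a, Jmjd6, Ogfod2, Egln1, Egln2, Egln3, Plod1, Alkbh3 and Alkbh7).

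**Figure D4:**
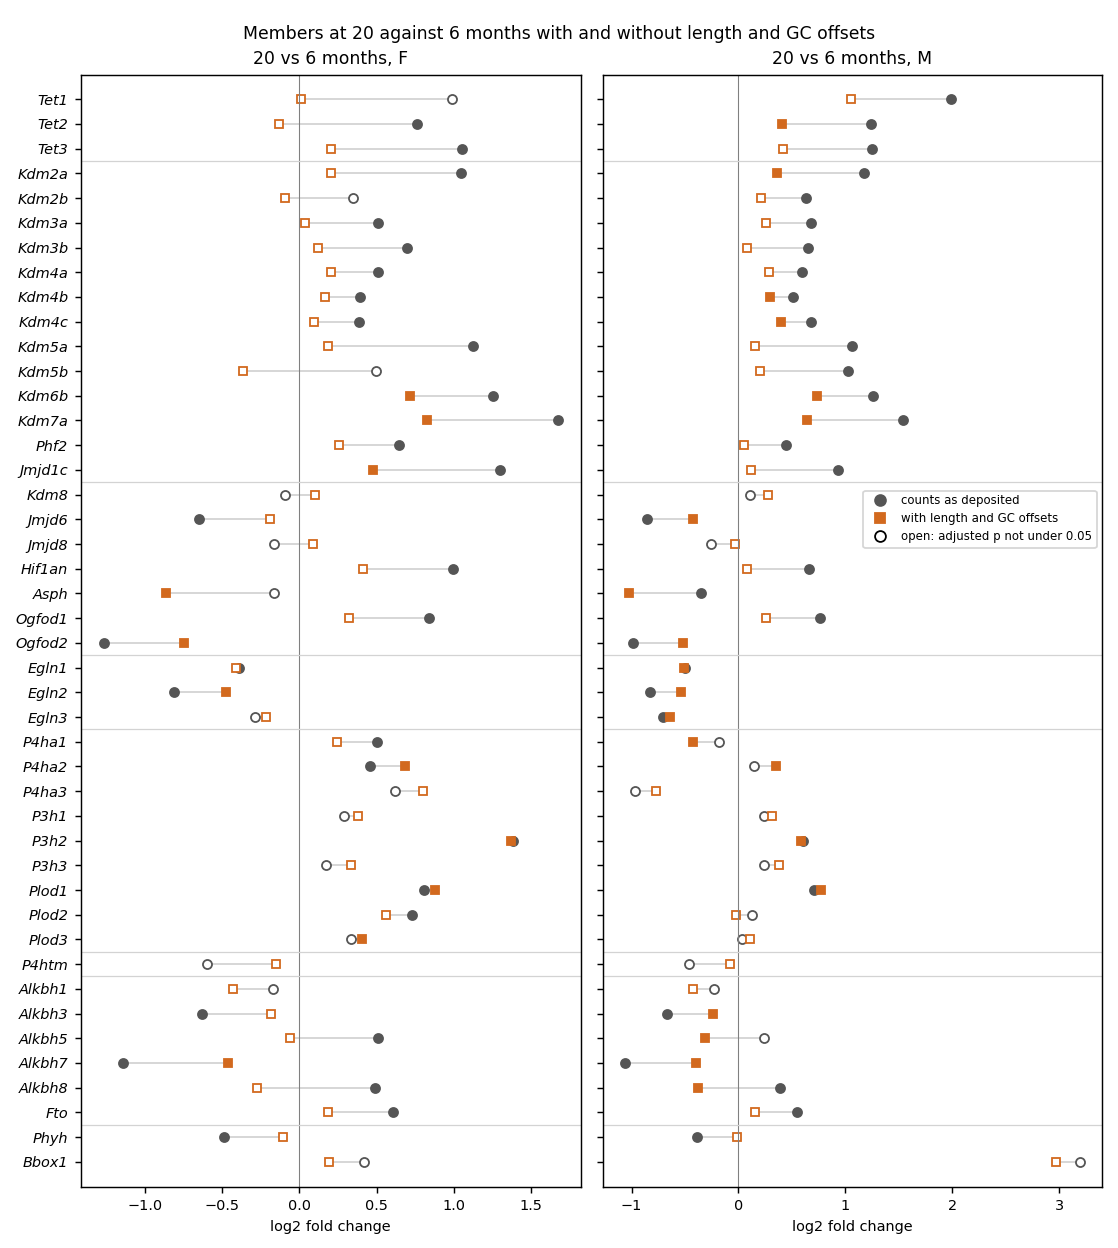
Log2 fold change at 20 against 6 months for each member without (grey circles) and with (orange squares) the length and GC offsets, females left and males right; open symbols did not pass an adjusted p of 0.05. Most histone demethylases move towards 0 with the offsets, Plod1 and P3h2 stay close to their first value, and Asph moves away from 0 to -0.86 in females and -1.02 in males.

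At 12 against 6 months no member passed in females and 13 fell in males, where 6.82% of all genes fell and 3.02% rose. In females 0.231% of all genes passed; 11 members had an unadjusted p under 0.05 with edgeR, and DESeq2 called 0 members, beside 0.483% of all genes. The female count became 9 without 12-month female 2, all falls (Fto, Kdm3b, Ogfod1, Phf2, Alkbh8, Kdm7a, Kdm8, Hif1an and Kdm2a, at -0.43 to -0.79), and 4 without 6-month female 3 (Fto, Kdm3b, Kdm8 and Ogfod1, at -0.56 to -0.75). For fits without a single library, here and below, the share of all genes called is not given. A shift of the members' count therefore cannot be told apart from a shift over all genes. The 3 lowest female p belonged to Fto (-0.46 ± 0.14), Kdm8 (-0.46 ± 0.14) and Kdm3b (-0.43 ± 0.14), with edgeR adjusted p of 0.152, 0.157 and 0.178. Tet2 (-0.36), Kdm6b (-0.14), Jmjd1c (0.06), Egln1 (-0.02), Egln3 (0.10), P4ha1 (-0.27), Plod2 (0.38), Alkbh5 (-0.33) and Phyh (-0.07) did not pass in females. The 13 male falls were P4ha1, Phf2, Hif1an, Alkbh5, P3h2, Egln3, Kdm7a, Jmjd1c, Alkbh8, Ogfod1, Asph, Fto and Plod3. Phf2 was the 1 of the 13 without overlap of the ages.

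P4ha1, at chr10:59323296-59373304, had 14.8, 15.9 and 25.1 CPM in 12-month males, against 23.6, 29.2 and 38.7 CPM at 6 months, and fell by 0.74 ± 0.14 (edgeR adjusted p = 0.000378). Phf2, a JmjC protein that binds methylated histone H3, had 19.9, 30.2 and 45.4 CPM, against 46.0, 51.2 and 55.9 CPM at 6 months, and fell by 0.69 ± 0.14 (adjusted p = 0.000593). Hif1an had 36.4, 62.0 and 135 CPM, against 101, 141 and 176 CPM, and fell by 1.02 ± 0.23 (adjusted p = 0.00209). The highest 12-month value of each of these 3 genes came from male 3, whose sex-linked transcripts went against its label; for P4ha1 and Hif1an it was the only one inside the 6-month range.

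Alkbh5 fell by 0.62 ± 0.14 (edgeR adjusted p = 0.00241) at 12 months in males, P3h2 by 0.83 ± 0.25 (adjusted p = 0.0244) and Egln3 by 0.66 ± 0.20 (adjusted p = 0.0246). The first 4 of these genes, P4ha1, Phf2, Hif1an and Alkbh5, were called in every fit that left out a single library and with the offsets, whereas the other 9 lost their call in 4 to 7 of 12 such fits. The count of 13 became 4 without 12-month male 2, 5 without male 1, 6 without male 6, 7 without 6-month males 1 or 6, and 16 without 12-month male 3, again given without the share of all genes. In a fit of the compared groups alone it was 5, where 3.44% of all genes passed. Without the doubted libraries 1 member rose and 16 fell in males, where 3652 of 17826 genes passed. In females 0 members and 0 genes passed without them. P4ha1 was at -0.69 and Hif1an at -0.88 with the offsets. Kdm6b (-0.24), Egln1 (-0.19), Plod2 (-0.19) and Phyh (-0.02) did not pass in males. Tet2, at 0.50 ± 0.18 without the offsets (adjusted p = 0.0656), was at 0.70 (adjusted p = 0.0021) with them.

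At 28 against 6 months, within batch 1, 6 members rose and 6 fell in females and 4 rose and 7 fell in males. Of all genes tested 9.91% rose and 9.04% fell in females and 6.76% rose and 9.38% fell in males. The members' median log2 fold change was 0.21 in females and 0.10 in males, beside 0.09 and 0.02 over all genes. Kdm2a rose in both sexes, and Alkbh3, Alkbh7, Egln1 and Ogfod2 fell in both. Egln1 had 305, 397 and 462 CPM in 28-month females, against 479, 606, 662 and 509 CPM at 6 months, without overlap; the change of -0.52 ± 0.15 (edgeR adjusted p = 0.00907) was -0.42 (adjusted p = 0.092) without 6-month female 3. In males Egln1 had 438, 451, 548, 530 and 510 CPM at 28 months, against 476, 715 and 748 CPM at 6 months; the fall of 0.40 ± 0.14 (adjusted p = 0.0375) lost its call in 6 of 11 fits without a single library (28-month males 11, 14 and 15 and 6-month males 2, 5 and 6, at -0.35 to -0.43). With the offsets Egln1 was at -0.63 and -0.43.

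In 28-month females Alkbh7 had 12.3, 17.1 and 22.5 CPM, against 21.9, 31.5, 35.3 and 30.1 CPM at 6 months, and fell by 0.79 ± 0.16 (edgeR adjusted p = 0.000635; -0.52 with the offsets). Kdm2a, at 27.3, 42.5 and 43.4 CPM against 31.4, 25.5, 18.4 and 25.1 CPM, rose by 0.60 ± 0.14 (adjusted p = 0.00164), and Kdm3a, a histone demethylase induced by HIF, by 0.53 ± 0.14 (adjusted p = 0.00472). These 3 calls held in every fit without a single library. Phyh fell by 0.59 ± 0.15 and Alkbh3 by 0.40 ± 0.11, and both calls, like that of Kdm6b (0.73 ± 0.21), were lost without 6-month female 3, at -0.47, -0.29 and 0.62. Jmjd1c (0.49) lost its call without 6-month females 2 or 3 (0.47 and 0.37), Phf2 (0.44) without 28-month female 9 or 6-month females 2, 3 or 4 (0.27 to 0.43), Asph (-0.44) without 28-month females 8, 10 or 12 or 6-month females 1, 2 or 4 (-0.36 to -0.47), and Ogfod2 (-0.55) without 28-month females 8, 10 or 11 or 6-month female 3 (-0.32 to -0.49). Egln3 (0.16), P4ha1 (0.24), Plod2 (0.29), Alkbh5 (0.20) and Fto (0.38) did not pass in females. The fitted rise of Bbox1 came from 28-month female 8, at 17.7 CPM, and was 1.97 (adjusted p = 0.56) without it. The count of 12 members became 4 without 6-month female 3, 7 with the offsets, where 12.6% of all genes passed, and 7 without the doubted libraries, where 7.32% did. No member was called in all of the fits with offsets, without the doubted libraries and with both changes, and 0 members passed in a fit of the compared groups alone, where 0% of all genes passed and 3612 had an unadjusted p under 0.05 with edgeR.

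In 28-month males Jmjd6 had 24.6, 30.2, 22.8, 22.3 and 27.5 CPM, against 31.1, 39.5 and 43.5 CPM at 6 months, without overlap. It fell by 0.59 ± 0.12 (edgeR adjusted p = 0.000692) and was the only member of the 11 called in all fits, at -0.41 with the offsets. P4ha1 had 20.0, 23.2, 22.6, 21.3 and 19.6 CPM, against 23.6, 29.2 and 38.7 CPM, and fell by 0.47 ± 0.15 (adjusted p = 0.019; -0.57 with the offsets); without 28-month male 15 it was at -0.44 and no longer passed. Egln2 fell by 0.43 ± 0.14 (adjusted p = 0.0214) and lost its call without 28-month male 11 or 6-month male 6, at -0.40 in each.

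The other male calls at 28 months were each lost in at least 1 fit without a single library. Kdm4a rose by 0.66 ± 0.18 (0.47 without 28-month male 13), Kdm4c by 0.43 ± 0.13 (0.34 without 6-month male 4) and Kdm2a by 0.43 ± 0.13 (0.35 without 28-month male 12, 0.38 without 6-month male 5). Fto rose by 0.37 ± 0.13 and lost its call in 9 of 11 fits (0.29 to 0.39), all but those without 28-month male 11 or 6-month male 6. Alkbh7 fell by 0.54 ± 0.15 (-0.43 without 6-month male 5), Ogfod2 by 0.51 ± 0.16 (-0.47 without 6-month male 5) and Alkbh3 by 0.31 ± 0.11 (-0.25 to -0.31 without 28-month males 11, 14 or 15 or 6-month males 5 or 6). The count of 11 members became 5 without 6-month male 5, 7 without 28-month male 15, 7 with the offsets, where 11.2% of all genes passed, and 19 without the doubted libraries, where 24.8% did. Kdm6b (0.33), Jmjd1c (0.32), Egln3 (-0.55), Plod2 (-0.12), Alkbh5 (-0.18) and Phyh (-0.35) did not pass in males.

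At 28 against 20 months more members fell than rose. In females 5 rose and 14 fell and in males 4 rose and 14 fell, where 17.3% and 12.6% of all genes rose and fell in females and 8.25% and 8.78% in males. Long transcripts were lower across all genes here. Spearman's correlation of the change with transcript length was -0.63 over the members and -0.42 over all genes in females. In males these values were -0.81 and -0.52. Of all genes of 6 kb and over 45.9% fell in females and 43.3% in males, beside 9 of the 13 members of that length in each sex. Without the doubted libraries, which include 3 of the 28-month females, 7 members rose and 12 fell in females and 5 rose and 16 fell in males, where 15.1% and 13.4% of all genes rose and fell in females and 11.7% and 11.9% in males. Cell markers moved in the same comparison: in females 6 of 10 endothelial, 6 of 8 smooth muscle, 4 of 6 tendon and 2 of 8 fibroblast markers fell, and in males 4 of 10 endothelial and 4 of 8 smooth muscle markers. All 10 keratinocyte and all 10 neutrophil markers rose in females, with keratinocyte sums of 1.45 to 10487 CPM at 28 months, against 1.86 to 3.03 CPM at 20 months, where 2 of the 10 were at 0 throughout. In males 0 genes of either list passed with edgeR, and 0 had an unadjusted p under 0.05. The part of the other markers was not tested. The members' values share the 20-month samples with the comparison of 20 with 6 months, so they are no separate evidence of it. Of the 13 histone demethylases 5 passed in females and 3 in males at 28 against 6 months, and 11 and 13 at 20 against 6 months. Kdm7a had 21.8, 26.5 and 29.2 CPM in 28-month females, against 45.6, 57.6 and 66.2 CPM at 20 months, and fell by 1.14 ± 0.18 (edgeR adjusted p = 4.24e-06; -0.43 with the offsets). In males it had 16.2, 26.9, 41.4, 33.8 and 39.4 CPM at 28 months, against 57.4, 65.5 and 78.5 CPM at 20 months, and fell by 1.08 ± 0.18 (adjusted p = 2.46e-05; -0.51 with the offsets). Neither sex overlapped.

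Plod1 likewise fell in both sexes with and without the offsets, by 0.46 ± 0.12 in females and 0.42 ± 0.12 in males (edgeR adjusted p = 0.00243 and 0.00713), and Kdm7a and Plod1 were the only members that fell in both sexes with the offsets, where 5.09% of all genes fell in females and 1.25% in males. Without them Alkbh8, Jmjd1c, Kdm2a, Kdm3b, Kdm5a, Kdm6b, Ogfod1 and Tet2 fell in both sexes too, and Egln2 and Ogfod2 rose in both. Tet2 had 14.5, 17.3 and 22.5 CPM in 28-month females, against 35.4, 40.7 and 53.0 CPM at 20 months, and fell by 1.24 ± 0.18 (adjusted p = 8.12e-07; -0.64 with the offsets). Its male fall was 0.72 ± 0.18 (adjusted p = 0.0028; -0.21 with the offsets, adjusted p = 0.63). Ogfod2 rose by 0.72 ± 0.16 in females and 0.48 ± 0.15 in males, and Egln2 by 0.57 ± 0.13 and 0.40 ± 0.12; in males both calls were lost without a single 28-month library (male 11 for Ogfod2, 0.44; males 13 or 15 for Egln2, 0.37). Kdm5a fell by 0.87 in females and 0.82 in males, and Tet3 by 1.20 in males. In females 13 of the 19 calls and in males 11 of the 18 held in every fit without a single library; Kdm6b lost its female call without 28-month females 10, 11, 12 or 13 or 20-month female 5 (-0.42 to -0.48), Ogfod1 its male call without 28-month male 11 (-0.43) and Alkbh8 its male call without 28-month males 11 or 15 (-0.42 and -0.44).

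Egln1 (-0.13 and 0.09), Egln3 (0.45 and 0.16), P4ha1 (-0.26 and -0.28), Plod2 (-0.44 and -0.24), Fto (-0.23 and -0.18) and Phyh (-0.11 and 0.03) passed in neither females nor males at 28 against 20 months. Alkbh5 fell by 0.41 ± 0.14 in males (edgeR adjusted p = 0.0272; -0.32 and -0.40 without 28-month males 11 and 12, where it did not pass) and was at -0.31 in females. The female rise of Bbox1 again came from 28-month female 8 (1.54 without it).

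Levels of some members at 28 months differed in size between the batches. In control males Kdm7a averaged 22.9 CPM at 6 months, 66.5 CPM at 20 months, 31.5 CPM at 28 months in batch 1 and 48.0 CPM at 28 months in batch 2. Tet2 had 19.7, 35.5 and 44.8 CPM in the batch 2 control males, against 18.98, 24.8, 26.2, 23.6 and 23.4 CPM in batch 1, and 25.7, 33.5 and 43.9 CPM in the batch 2 females, against 14.5, 17.3 and 22.5 CPM in batch 1. Egln1 averaged 394 CPM in the batch 2 females, against 393 CPM in batch 1. Batch 2 holds no younger mice, so batch was not compared by test, and the age comparisons rest on batch 1 alone.

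No member passed for a difference between the sexes in its change with age in the fit of all groups. For 28 against 6 months 0 members passed (edgeR), 5 had an unadjusted p under 0.05, and 0.329% of all genes passed; DESeq2 called 2 members and 1.57% of all genes. For 20 against 6 months 0 members and 0% of all genes passed, with 2 members at an unadjusted p under 0.05 and 0 by DESeq2, beside 0.115% of all genes. The lowest p at 28 months was that of Tet2, whose male change exceeded the female one by 0.99 ± 0.28 (adjusted p = 0.0777). Tet2 passed in this comparison with the offsets (0.97, adjusted p = 0.041), without the doubted libraries (1.16, adjusted p = 0.04), and without 6-month male 3 alone (1.09, adjusted p = 0.038). Its male change was 0.52 ± 0.19 (18.98, 24.8, 26.2, 23.6 and 23.4 CPM at 28 months, against 10.8, 15.2 and 23.4 CPM at 6 months) and its female change -0.47 ± 0.20; neither passed alone. P4ha1 followed at -0.71 ± 0.21 (adjusted p = 0.107) for 28 months, and at -0.69 ± 0.20 (adjusted p = 0.668) for 20 months; it passed at 28 months without 6-month female 1 (-0.89, adjusted p = 0.048). P3h2 differed by -0.78 ± 0.36 at 20 months and did not pass.

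Genes that supply the co-substrate or clear its competitors were counted beside the members at 20 against 6 months, where 36.0% of all genes passed in females and 44.6% in males. Of 20 enzymes and carriers of alpha-ketoglutarate 1 rose and 6 fell in females and 2 rose and 5 fell in males, a share no higher than that of all genes. Idh3b, a subunit of the isocitrate dehydrogenase that makes alpha-ketoglutarate, fell by 0.83 in females and 0.81 in males, and the mitochondrial oxoglutarate carrier Slc25a11 by 0.77 and 0.79. Of 8 genes that remove succinate, fumarate or 2-hydroxyglutarate 1 rose and 5 fell in females and 1 rose and 4 fell in males; Sdhb of succinate dehydrogenase fell by 0.95 and 0.87, and Sdhd by 0.83 and 0.74. Of 9 iron and ascorbate genes 2 rose and 2 fell in females and 5 rose and 3 fell in males, with the ascorbate transporter Slc23a2 up by 0.84 and 1.20 and the ferritin chain Fth1 down by 0.95 and 0.88. Of 18 genes of the HIF pathway 6 rose and 4 fell in females and 8 rose and 4 fell in males; Epas1, which encodes HIF-2 alpha, rose by 1.68 in both sexes, and the glycolytic target Ldha fell by 0.85 and 0.82. Of 17 DNA, histone and RNA methyltransferases listed opposite to the members 10 rose and 1 fell in females and 10 rose and 2 fell in males, led by Kmt2a (1.41 and 1.74) and Kmt2c (1.43 and 1.54). Of 14 further dioxygenase genes outside the member list 2 rose and 4 fell in females and 2 rose and 5 fell in males, with Alkbh6 down by 0.96 and 0.95. With the length and GC offsets fewer genes passed in each of these lists except the one that clears succinate and its like. The alpha-ketoglutarate list then had 2 falls in females, and 2 rises and 4 falls in males. The methyltransferase list had 3 rises and 1 fall in females and 5 rises and 4 falls in males, and the list that clears succinate had 1 rise and 5 falls in females and 1 rise and 4 falls in males.

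With CaAKG, the calcium salt of the co-substrate itself, no member passed. Of all genes 0.0659% did, 12 genes and all of them higher, of which 6 were neutrophil markers. Without the doubted libraries 0 members and 0 genes passed, with 858 genes at an unadjusted p under 0.05 (edgeR). Of the members 3 had an unadjusted p under 0.05 with edgeR and DESeq2 called 0, beside 0.159% of all genes. In direction 19 members were higher and 25 lower in CaAKG males, with a median log2 fold change of -0.01, beside 0.01 over all genes. For 40 of 44 members the normal 95% interval of the change lay within 1.5-fold either way. The intervals of Tet1 (-1.40 to 0.24), P4ha3 (-1.05 to 1.37), P4htm (-0.60 to 0.33) and Bbox1 (0.13 to 4.51) were wider.

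The lowest p with CaAKG was that of Asph, at 81.4, 114 and 151 CPM in CaAKG males, against 116, 151 and 165 CPM in control males, a change of -0.34 ± 0.10 (edgeR adjusted p = 0.288) with overlap of the groups; it was at -0.20 with the offsets and without the doubted libraries. P3h1, a prolyl 3-hydroxylase of fibrillar collagen, changed by 0.25 ± 0.12 (adjusted p = 0.694). Bbox1 changed by 2.32 ± 1.12 (adjusted p = 0.715); it passed without control male 4 (5.11, adjusted p = 0.044) and was at -0.18 without the doubted libraries, the 3 replicates with most Bbox1 in these groups being CaAKG males 8 and 10, at 16.1 and 4.51 CPM, and control male 4, at 3.03 CPM, each with keratinocyte markers. Egln1 had 321, 460 and 576 CPM in CaAKG males, against 388, 412 and 475 CPM in control males (0.07 ± 0.10), and Tet2 had 17.0, 34.98 and 43.1 CPM, against 19.7, 35.5 and 44.8 CPM (-0.12 ± 0.13). Kdm6b (-0.10 ± 0.14), Jmjd1c (-0.02 ± 0.10), Egln3 (0.05 ± 0.15), P4ha1 (-0.08 ± 0.10), Plod2 (-0.02 ± 0.16), Alkbh5 (0.01 ± 0.10), Fto (-0.02 ± 0.09) and Phyh (-0.01 ± 0.10) all lay within 1 SE of 0. In the other lists, from co-substrate supply to methyltransferases, 0 genes passed with CaAKG.

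**Figure D5:**
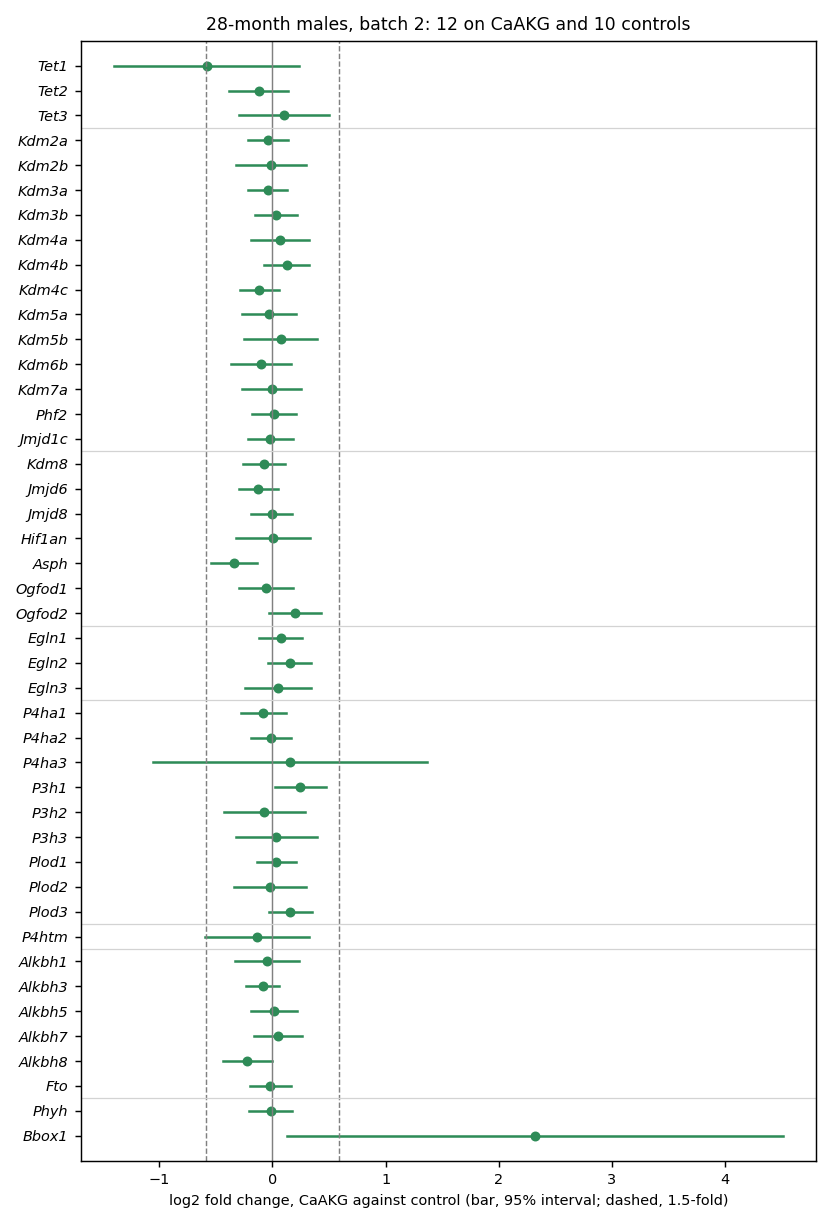
Log2 fold change of each member in the 12 CaAKG males over the 10 control males of batch 2 (points) with its 95% interval (bars), in rows grouped by role; dashed lines mark 1.5-fold either way. The intervals of Asph, P3h1, Alkbh8 and Bbox1 leave out 0, and none of these members passed the adjusted threshold.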

How the data were processed

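Total RNA of 78 soleus libraries was sequenced on an Illumina NovaSeq (paired-end, 150 bases), per the labels. Per the submitters' processing notes, FastQC, STAR 2.7.11b, RSEM 1.3.3 and the build mm10 were used; the annotation release and the strand setting are not given in any source used here. The values are RSEM expected counts per gene, which the authors deposited as 1 table of 36904 gene IDs; 8.99% were not whole (tolerance 1e-06). Where strand was not used in counting, overlapping genes share reads that cannot be told apart; 17 members share exon bases with another gene, and 2 share over 25% of them. Another 55 columns of that table carry no name found in the labels and were left aside.

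Expected counts were rounded. The 2 libraries with a shared animal tag were summed, which left 77 replicates. The filter was filterByExpr with a minimum count of 10 and a minimum total of 15, and 18218 genes passed it. Tests used 1 edgeR 4.0.16 quasi-likelihood fit (TMM factors, 11 group means), with Benjamini-Hochberg adjustment over all genes and a threshold of 0.05; log2 fold changes, SE and adjusted p come from it unless another fit is named. Counts per 1e6 (CPM) use TMM factors, but plain library totals for marker sums and for checking sex; CPM per kb divides by the longest coding transcript of GENCODE M21 (mm10), which also gave positions. Offsets come from splines of 5 degrees of freedom on transcript length and GC, known for 97.5% of the genes tested; the trend was fitted to log2 CPM with a prior count of 2, and genes without a length had library size alone. The fit was tested on simulated counts.

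Members and lists were chosen with earlier results of these data known. Named with full statistics are up to 6 members with the lowest p among those called in each comparison, the 3 with the lowest p where none was, and 10 members throughout; others, and the genes whose promoters are printed, were named after their values were seen. Alternatives were DESeq2 1.42.0, RLE factors, no filter, a minimum count of 50, the mitochondrial genome left out, only the compared groups, the replicate block, the tagged libraries kept apart, the offsets, leaving out either set of doubted libraries or both, and leaving out single libraries. The offsets without both sets were added after seeing the data. The limit of 100 CPM for keratinocyte and neutrophil markers came from earlier results. Promoters are from RefSeq.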

Additional observations from a re-analysis of the deposited data

Results flagged for a closer look

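In groups of 4 to 10 replicates the highest or lowest value of a member was compared with the rest of its group by Dixon's test. Each of the 44 members was tested in each such group, 440 tests in all, and 34 values stood apart. Chance alone gives about 1 in 20 tests. The values are CPM.

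Among 12-month females, replicate 2 was high for Kdm2a (31.3), Kdm7a (26.1) and P3h2 (45.4), replicate 4, whose sex-linked transcripts went against its label, for Jmjd6 (41.8), and replicate 5, with keratinocyte markers, for Bbox1 (14.9). Female 1, another against its label, was low for P4htm (0). Among 12-month males, replicate 3, also against its label, was high for Kdm2a (30.5), Hif1an (135), Alkbh8 (13.5) and P3h2 (31), and replicate 1 for P4ha3 (0.63). Leaving out 12-month male 3 raised the number of members called at 12 against 6 months in males to 16, and leaving out 12-month female 2 that in females to 9.

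Among 28-month females of batch 1, replicate 8, with the most keratinocyte transcripts, was high for Tet3 (38.1) and Bbox1 (17.7) and low for P4ha2 (14), and replicate 9 was high for Kdm4b (36.1). Among 28-month males of batch 1, replicate 11 was low for Kdm5a (12.2) and Alkbh3 (31.9, where the other 4 lay at 32.5), and replicate 15 high for Bbox1 (0.351). In batch 2, female 7 was high for Kdm2a (55.2) and Kdm5a (44.7) and low for Alkbh1 (0.904), female 4 low for Kdm4b (18.3), control male 1 low for Kdm2a (33.0) and Jmjd1c (20.5) and high for Jmjd8 (15.6), and control male 4 high for Bbox1 (3.03).

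At 20 months, male 5 was high for Kdm3a (23.3) and low for Jmjd6 (16.7), male 2 was low for P4ha1 (20.2) and female 1 low for Kdm8 (5.01). At 6 months, male 1 was high for Jmjd1c (31.5), male 5 for P4ha3 (1.59), male 6 for Bbox1 (0.107) and female 1 for Kdm5b (9.61).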

How the results depend on the processing

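Counts of members called moved by over 1.5 times in these cases. With the length and GC offsets they were 7 of 44 in females and 7 in males at 28 against 6 months (12 and 11 without), 11 and 20 at 20 against 6 months (30 and 31), 8 and 5 at 28 against 20 months (19 and 18), and 1 for the sex difference at 28 months (0). Of 18218 genes 2289 and 2048, 3449 and 5656, 2836 and 582, and 70 passed with the offsets, in the same order. With the offsets and without the doubted libraries the members called were 2 in females at 28 against 6 months, 10 in females at 20 against 6 months, 12 and 6 in females and males at 28 against 20 months, and 2 for the sex difference. Of 17826 genes 813, 3317, 3037 and 1106, and 503 passed there, in the same order. Without the doubted libraries alone 7 members were called in females and 19 in males at 28 against 6 months and 1 for the sex difference. Of 17826 genes 1304, 4418 and 450 passed there. Without those against their sex label 5 members were called in females and 1 for the sex difference, given without the count of all genes. With only the compared groups 0 members were called in females at 28 against 6 months and 5 in males at 12 against 6 months. There 0 of 15595 and 494 of 14356 genes passed. DESeq2 called 2 for the sex difference at 28 months. In all these cases the cause was not tested, beyond the number of libraries where groups or libraries were left out. The other planned fits (RLE factors, no filter, a minimum count of 50, the mitochondrial genome left out, the tagged libraries apart) left each count within 1.5 times.

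Signs reversed with the offsets, alone and with the doubted libraries left out, for Alkbh5 (-0.060 and -0.14), Alkbh8 (-0.27 and -0.32) and Tet2 (-0.13 and -0.17) in females and Alkbh8 in males (-0.38 and -0.41) at 20 against 6 months, and for Kdm2a (0.069 and 0.062) and Alkbh8 (0.12 and 0.21) in females and Alkbh8 in males (0.023 and 0.037) at 28 against 20 months. Jmjd6 reversed with the offsets alone (-0.011) and Ogfod1 with both changes (0.084) in females at 28 against 20 months.

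Leaving out 1 replicate gave 4 to 17 calls in females and 5 to 13 in males at 28 against 6 months, 22 to 30 and 29 to 32 at 20 against 6 months, 0 to 9 and 4 to 16 at 12 against 6 months, 14 to 21 and 13 to 18 at 28 against 20 months, 0 to 1 with CaAKG, and 0 to 1 and 0 to 0 for the sex difference at 28 and 20 months. In females at 12 months the 9 came without 12-month female 2, and 4 without 6-month female 3. The number of all genes called in each of these fits is not given, so the ranges describe the members alone.

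Replicate numbers are shared between groups for 20 against 6 months, 12 against 6 months and CaAKG. Samples with one number correlated at -0.18 to 0.17 in their deviations, never all above 0.1, so the numbers pair nothing. With the replicate block the counts were 27 and 31 at 20 months, 0 and 11 at 12 months, 0 with CaAKG and 0 for the sex difference at 20 months. The number of all genes called with the block is not given, so these counts describe the members alone. Log2 changes of Tet1 and P4ha3, at 4.61 CPM or less in every replicate, had SE of 0.42 to 1.29, and those of Bbox1 1.12 to 4.22.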
